A study of Mus musculus with 4 samples.

Results

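Cell-cell junctions were followed through 10 genes, chosen by name and not by their values: 4 cadherins that mark different tissue lineages (Cdh1, Cdh2, Cdh5 and Cdh11), 4 catenins (Ctnnb1, Ctnna1, Ctnnd1 and Jup), connexin 43 (Gja1) and ZO-1 (Tjp1). All 10 were found among the 39056 genes of the count table, and 8 of them reached 1 CPM (a read count divided by the scaled library total, on a common scale) in at least 1 library. The study sequenced polyadenylated RNA from 4 libraries with 1 library per label: no LPS, 8 h, 16 h and 20 h. The treatment was lipopolysaccharide (LPS), a component of the outer membrane of Gram-negative bacteria, at 10 mg/kg into the peritoneum. All 4 labels share the same source, the lungs of S1PR1-GFP reporter mice, and the same flow sort for GFP-positive, CD31-positive and CD45-negative cells, which the labels call endothelial. The sources used here do not give how the reporter is driven, the age of the mice, or how many animals stand behind a library.

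Adherens junctions join neighbouring cells through cadherins, membrane proteins whose outer parts bind each other across the gap in a calcium-dependent way. Inside the cell the cadherin tail holds beta-catenin or plakoglobin and p120-catenin, and alpha-catenin links this complex to actin. Beta-catenin also acts in the nucleus with TCF/LEF transcription factors when Wnt signalling spares it from destruction. Gap junctions are channels built of connexins, and ZO proteins are scaffolds of tight junctions that also bind connexins. In lung endothelium, VE-cadherin (Cdh5) is the cadherin best known for holding the vessel wall closed, and its junctions open during endotoxin injury.

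The labelled cell type did not match the transcripts that define it. Of 9 endothelial markers other than Cdh5, 1 (Egfl7) reached 1 CPM in any library, Erg, Emcn and Cldn5 had 0 reads in all 4, and the summed level of the list was 3.90 to 5.12 CPM per library. The mesenchymal list had 6 of 10 genes at 1 CPM and a summed level of 4340 to 4534 CPM, most of it from Vim and Fn1. The fibroblast collagen genes Col1a1 and Col1a2 and the surface marker Thy1 had at most 4, 1 and 1 reads, and Col3a1 was called lower at 8 h and 16 h than with no LPS (ratios 0.488 and 0.497). The epithelial list without Cdh1 had 4 of 11 genes at 1 CPM and summed to 54.3 CPM in the no LPS library, 128 in that of 8 h, 129.5 in that of 16 h and 55.1 in that of 20 h, with Cldn3, Cldn7 and Esrp1 at 0 reads throughout. These sums came from Krt8 and Krt18 above all, while Krt7 had 19, 10, 7 and 14 reads in the same order. The leukocyte list had 5 of 8 at 1 CPM and summed to 123.5, 92.4, 91.7 and 125.4 CPM across no LPS, 8, 16 and 20 h, with Cd3e at 0. In it Adgre1 was called higher at 8 h and 16 h, with 31 and 77 reads against 12 with no LPS. Csf1r was called higher at 16 h, with 30 reads against 9. Adgre1 reached 1 CPM at 8 h and 16 h alone and Csf1r at 16 h alone, so the filter favoured these calls. Over all genes 8.42% were called for 8 h over no LPS and 8.34% for 16 h over no LPS. Cd68, the gene with the highest level in the leukocyte list, went the other way without being called. Its ratio to no LPS was 0.667 at 8 h and 0.622 at 16 h. Ptprc had 42, 37, 31 and 38 reads across no LPS, 8, 16 and 20 h. The part of these marker differences in the results below was not tested. Table columns were tied to labels by sample title alone. Whether they hold the labelled cells was not tested beyond these markers; if they do not, the LPS labels and times would not apply to the values below. Library totals were 27566454 to 28905776 reads, and 3 reads, a floor set in advance, were 0.104 to 0.108 CPM. Each time below stands for the library with that label. There are no replicates, so intervals are 95% counting intervals, which leave out variation between animals and preparations, and reads carry no molecular identifiers. In bulk RNA fewer cells of a type and less RNA per cell cannot be told apart.

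The closest pair among the catenins, beta-catenin and plakoglobin, is shown first because the genes stood 502 to 1296 times apart in level per kilobase. Both proteins are built of armadillo repeats and compete for the same site on cadherin tails. The 2 sequences are the most alike ungapped stretch of 120 bases of their coding sequences (GENCODE M21 transcripts), from base 979 to base 1098 in Ctnnb1 and from base 952 to base 1071 in Jup, counted from the first base of the start codon. Capitals mark the 19 bases that differ.
Ctnnb1: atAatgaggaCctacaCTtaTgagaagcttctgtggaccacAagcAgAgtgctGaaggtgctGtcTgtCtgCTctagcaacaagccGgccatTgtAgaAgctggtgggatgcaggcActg
Jup: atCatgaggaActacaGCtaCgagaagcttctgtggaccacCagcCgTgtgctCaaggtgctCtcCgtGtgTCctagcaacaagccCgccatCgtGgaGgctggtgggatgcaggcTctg
Even here 101 of 120 bases (84.2%) were identical, and the longest run of identical bases between the whole coding sequences was 20. Of 50-base words in the annotated transcripts of Jup, 0.764% also occurred in transcripts of other genes, and none of the words of Ctnnb1 occurred in Jup.

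The promoters of 3 members on chromosomes 7, 9 and 10 are shown because these genes had narrow counting intervals and took different directions between labels. Each is the 250 bases before the transcription start in the RefSeq table for GRCm38.p6, on the strand of the gene. Of the 10 members, 5 had a window in that table. The windows of Tjp1 and Ctnnb1 lie inside the gene spans given below, since GENCODE M21 annotates starts farther upstream. The bases after the start shown occur in 0 GENCODE transcripts of Tjp1 and in 0 of Gja1.
Tjp1, chr7:65371245-65371494, minus strand: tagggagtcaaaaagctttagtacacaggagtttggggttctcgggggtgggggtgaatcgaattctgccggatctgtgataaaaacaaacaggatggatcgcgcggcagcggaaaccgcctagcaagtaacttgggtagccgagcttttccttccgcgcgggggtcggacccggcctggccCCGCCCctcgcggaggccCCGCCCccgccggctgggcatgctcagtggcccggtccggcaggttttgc
Gja1, chr10:56377050-56377299, plus strand: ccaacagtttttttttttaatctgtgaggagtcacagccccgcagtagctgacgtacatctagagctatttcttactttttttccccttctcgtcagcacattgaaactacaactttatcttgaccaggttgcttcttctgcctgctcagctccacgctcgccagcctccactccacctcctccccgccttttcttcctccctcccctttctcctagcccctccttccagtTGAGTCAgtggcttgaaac
Ctnnb1, chr9:120933150-120933399, plus strand: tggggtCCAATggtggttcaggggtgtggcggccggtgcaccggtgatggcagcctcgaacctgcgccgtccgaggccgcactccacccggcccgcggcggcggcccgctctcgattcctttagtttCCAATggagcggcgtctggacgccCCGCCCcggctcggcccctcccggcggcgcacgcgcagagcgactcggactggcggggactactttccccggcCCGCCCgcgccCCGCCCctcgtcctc
Capitals mark matches on either strand, none overlapping another, to 5 motifs: the TATA box TATAAA, the CCAAT box CCAAT, the GC box GGGCGG, the E-box CACCTG recognised by SNAI and ZEB repressors, and the AP-1 site TGANTCA. The Gja1 window held 1 AP-1 match, a motif present in 6.7% of 32851 windows of this length, and none of the other 4. The Tjp1 window held 2 GC boxes (32.7% of windows had at least 1). The Ctnnb1 window shown held 3 GC boxes and 2 CCAAT boxes (33.8% of windows had a CCAAT box). A second Ctnnb1 window in the table, chr9:120933328-120933577, overlaps it and held 2 GC boxes, 1 TATA box (12.4% of windows had one) and no CCAAT box, and the bases after its start occur in 4 GENCODE transcripts of the gene, against 1 for the window shown. None of the 3 held the E-box, which 17.2% of windows had. CG dinucleotides numbered 6 in the Gja1 window, 22 in that of Tjp1, and 35 and 43 in those of Ctnnb1, against a median of 6 over all windows.

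Among the 4 cadherins followed, N-cadherin had the most reads. Cdh2, which encodes N-cadherin of neural and mesenchymal cells (chromosome 18, 16588877 to 16809246, minus strand; gene coordinates are those of mm10), had 406 reads in the no LPS library, 611 in that of 8 h, 565 in that of 16 h and 402 in that of 20 h. Levels were 14.4, 21.3, 20.4 and 14.5 CPM in the same order, so the libraries labelled 8 h and 16 h were high and the other 2 low. The 8 h level was 1.48 times that with no LPS (1.30 to 1.68), and the 16 h level 1.42 times (1.25 to 1.62). The 20 h level was 1.01 times that with no LPS (0.878 to 1.16) and 0.712 times that at 16 h (0.625 to 0.810). Of the reads of Cdh1, Cdh2, Cdh5 and Cdh11 together, Cdh2 took 87.1% in the no LPS library, 89.6% in that of 8 h, 90.7% in that of 16 h and 87.4% in that of 20 h, with exact binomial (Clopper-Pearson) intervals between 83.7% and 92.9%.

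The other 3 cadherins were scarce. Cdh5 (chromosome 8, 104101625 to 104144511, plus strand), the endothelial VE-cadherin, had 5, 6, 6 and 9 reads across no LPS, 8, 16 and 20 h. Its ratio of 20 h over no LPS was 1.84 on these counts, with an interval of 0.553 to 6.98. Cdh1 (chromosome 8, 106603351 to 106670246, plus strand), the epithelial E-cadherin, had 5, 4, 4 and 3 reads at the same labels. Differences in either gene were not detectable at this depth. Cdh11 (chromosome 8, 102632095 to 102785642, minus strand), a cadherin of mesenchymal cells and osteoblasts, had 50, 61, 48 and 46 reads, or 1.77, 2.12, 1.73 and 1.66 CPM, across no LPS, 8, 16 and 20 h. All its intervals overlapped, and its 8 h over no LPS ratio was 1.20 (0.813 to 1.78). Per kilobase of exon, on the TPM scale (reads per kilobase, scaled to the same sum in every library), the levels averaged 9.03 for Cdh2, 0.846 for Cdh11, 0.228 for Cdh5 and 0.129 for Cdh1.

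**Figure D1:**
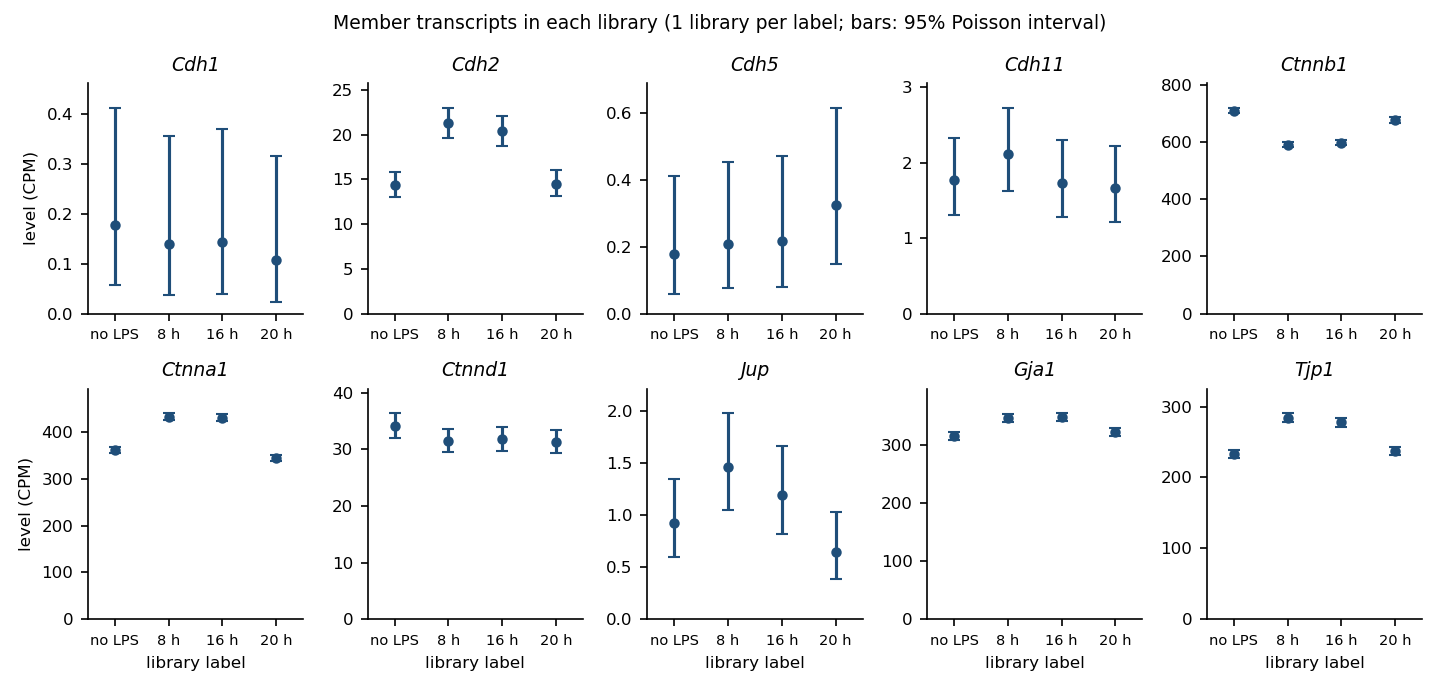
Level of each of the 10 members in CPM (y axis, linear and starting at 0, a scale per gene) in the 4 libraries by label (x axis), with points for 1 library each and bars for 95% Poisson intervals of its read count. Cdh2, Ctnna1, Gja1 and Tjp1 are highest at 8 h and 16 h, Ctnnb1 is lowest there at 593 and 599 CPM, and Cdh1 and Cdh5 stay under 1 CPM.

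A cadherin outside the 10, Cdh13, had more reads than Cdh2 in the no LPS and 20 h libraries and fewer in the other 2. Among 18 other listed cadherins, 2 reached 1 CPM, 7 had no reads in any library, and none was called in any of the 5 comparisons. A call needed a scaled ratio of at least 2 in either direction, a minimum of 1 CPM in whichever library was higher, and a counting interval clear of 1. It is a rule of size and not a test, since a label has 1 library. Over all genes, from 0.245% (16 h over 8 h) to 8.56% (20 h over 16 h) were called. Cdh13, which encodes T-cadherin, a cadherin held by a lipid anchor in place of a cytoplasmic tail, had 462, 415, 342 and 413 reads across no LPS, 8, 16 and 20 h. Its levels were 16.3, 14.5, 12.3 and 14.9 CPM in the same order. Per kilobase the order differed, and the TPM of Cdh2 was 1.22 times that of Cdh13 in the no LPS library, 2.05 times in that of 8 h, 2.30 times in that of 16 h and 1.36 times in that of 20 h. Cdh2 took 41.5% of the reads of all 22 listed cadherins in the no LPS library (38.4% to 44.6%), 53.6% in that of 8 h (50.7% to 56.6%), 56.4% in that of 16 h (53.3% to 59.5%) and 43.6% in that of 20 h (40.4% to 46.9%). The intervals of the 8 h and 16 h libraries thus lay above those of the other 2. The share of Cdh13 was 47.2% in the no LPS library (44.0% to 50.4%), 36.4% in that of 8 h (33.6% to 39.3%), 34.2% in that of 16 h (31.2% to 37.2%) and 44.8% in that of 20 h (41.6% to 48.1%), so it was low where that of Cdh2 was high. Cdh24 stood at 0.939 to 1.17 CPM. Among 9 FAT, Dachsous and CELSR cadherins, large relatives that act in planar polarity and Hippo signalling, 2 reached 1 CPM: Fat1 at 176 to 214 CPM, well above both Cdh2 and Cdh13, and Dchs1 at 1.64 to 3.79 CPM.

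Beta-catenin was the most abundant member. Ctnnb1 (chromosome 9, 120929216 to 120960507, plus strand) had 20129 reads in the no LPS library, 17021 in that of 8 h, 16595 in that of 16 h and 18823 in that of 20 h, which is 712, 593, 599 and 680 CPM. Its TPM ranked between 177 and 253 among all genes of a library. The 8 h and 16 h libraries were low and the other 2 high. The ratio was 0.832 for 8 h over no LPS (0.816 to 0.850), 0.841 for 16 h over no LPS (0.824 to 0.858) and 0.954 for 20 h over no LPS (0.936 to 0.974). Of its exon bases 14.62% also belong to exons of Ulk4 on the opposite strand, a gene with 75 to 151 reads, and the sources used here do not say whether strand was used in counting.

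Plakoglobin was nearly absent beside it. Jup (chromosome 11, 100368958 to 100397763, minus strand), which serves both adherens junctions and desmosomes, had 26, 42, 33 and 18 reads, or 0.920, 1.46, 1.19 and 0.650 CPM, across no LPS, 8, 16 and 20 h. It thus reached 1 CPM at 8 h and 16 h alone. The 8 h library was the highest and the 20 h library the lowest, with intervals that overlapped between neighbours in this order. Its ratio of 20 h over 16 h was 0.546 (0.289 to 0.998), past a fold threshold of 1.5 that 21.0% of genes passed there and 1 of 8 members did, and that of 8 h over no LPS was 1.59 (0.953 to 2.70). Ctnnb1 exceeded Jup in TPM by 960 times in the no LPS library, 502 times in that of 8 h, 623 times in that of 16 h and 1296 times in that of 20 h. Of the reads of the pair Ctnnb1 held 17021 of 17063 in the 8 h library, where its share was lowest of the 4.

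Alpha-catenin was high at 8 h and 16 h, where beta-catenin was low. Ctnna1 (chromosome 18, 35118859 to 35254779, plus strand) had 10236, 12423, 11938 and 9551 reads, or 362, 433, 431 and 345 CPM across no LPS, 8, 16 and 20 h. The ratio was 1.19 for 8 h over no LPS (1.16 to 1.23), 1.19 for 16 h over no LPS (1.16 to 1.22) and 0.952 for 20 h over no LPS (0.926 to 0.979). The TPM of Ctnnb1 was 2.43 times that of Ctnna1 in the no LPS library, 1.70 times in that of 8 h, 1.72 times in that of 16 h and 2.44 times in that of 20 h, a within-library ratio on which library scaling has no bearing. The other alpha-catenin genes, the neuronal Ctnna2 and Ctnna3 of heart and testis, had 1 read between them in the 4 libraries. Ctnna1 exceeded Cdh2 in TPM by 25.5 to 31.7 times, and Ctnnb1 exceeded Cdh2 by 43.3 to 77.0 times, with the smallest values at 8 h.

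The level of p120-catenin is uncertain in this table. Ctnnd1 (chromosome 2, 84600071 to 84650765, minus strand), whose product binds the cadherin tail near the membrane and keeps cadherins from being internalised, had 965, 904, 881 and 869 reads, or 34.1, 31.5, 31.8 and 31.4 CPM, across no LPS, 8, 16 and 20 h. Its intervals overlapped across the 4 libraries, and the ratio of 8 h over no LPS was 0.922 (0.841 to 1.01). A second annotated gene on the same strand, Gm28635, covers 61.24% of its exon bases and was listed at 0 reads in all 4 libraries. The sources used here do not give how reads in exons shared by genes were counted, and the part of this overlap in the level was not tested. With its reads divided by all 7319 exon bases the level was 17.6 to 19.5 TPM. The same reads divided by only the 2837 bases that no other gene in the table shares gave 45.5 to 50.2 TPM. The second range would hold only if no read in the shared exons was counted, which is not known. The related Pkp4 stood at 80.4, 102, 103 and 80.6 CPM and Arvcf at 5.45, 7.04, 6.71 and 5.52 CPM across no LPS, 8, 16 and 20 h. Ctnnd2, a neuronal relative, had at most 3 reads.

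**Figure D2:**
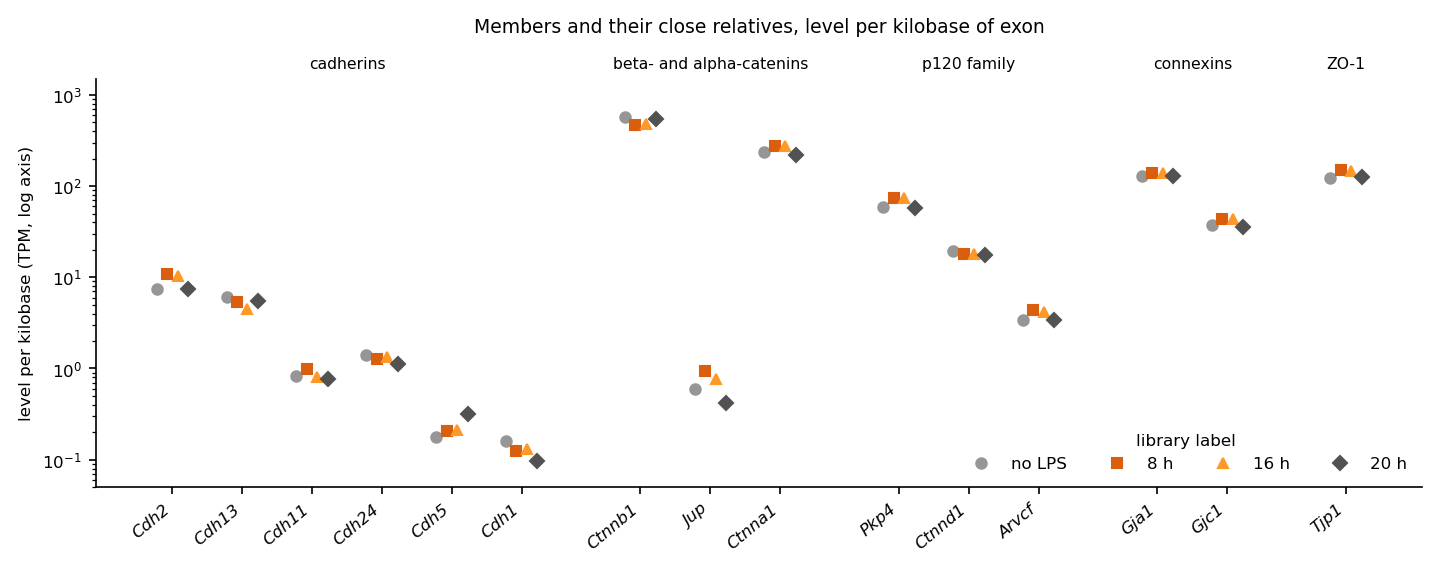
Level per kilobase of exon in TPM (y axis, log scale) of the members and some of their relatives, grouped by family along the x axis, with 1 symbol per library label. Cdh2 and Cdh13 lie above the other cadherins shown, Ctnnb1 lies 502 to 1296 times above Jup, and Gja1 lies above Gjc1.

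Connexin 43 dominated the gap junction genes. Gja1 (chromosome 10, 56377330 to 56402513, plus strand), the connexin of fibroblasts, smooth muscle and many other cells, had 8938, 9975, 9649 and 8942 reads, or 316, 347.5, 348.3 and 323 CPM across no LPS, 8, 16 and 20 h. The 8 h and 16 h libraries stood above the other 2 with intervals that did not touch, though the ratio to no LPS was 1.10 (1.07 to 1.13) in both. The 20 h over no LPS ratio was 1.02 (0.991 to 1.05). Gja1 took 86.6% to 88.1% of all connexin reads. Gjc1, which encodes connexin 45, held nearly all the rest, at 44.5, 53.2, 52.5 and 43.4 CPM across the same labels. Of 22 other connexin and pannexin genes, 12 had no reads in any library and 2 reached 1 CPM, Gjc1 and Panx1. The endothelial connexin genes Gja4 and Gja5 had 1 and 0 reads in the 4 libraries together. Panx1, which encodes a channel that releases ATP, was at 6.51, 11.3, 10.2 and 6.72 CPM across them, 1.73 times as high at 8 h as with no LPS (1.44 to 2.08).

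ZO-1 was likewise highest at 8 h and 16 h. Tjp1 (chromosome 7, 65296165 to 65527781, minus strand) had 6576, 8162, 7694 and 6571 reads, or 233, 284, 278 and 237 CPM, across no LPS, 8, 16 and 20 h. The ratio was 1.22 for 8 h over no LPS (1.18 to 1.26), 1.19 for 16 h over no LPS (1.15 to 1.23) and 1.02 for 20 h over no LPS (0.985 to 1.06). Tjp3, the epithelial ZO-3 gene, had at most 1 read.

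None of the 10 members was called between any pair of libraries compared. For 8 h over no LPS 0 of 8 members were called, against 8.42% of all 11650 genes at that level. For 16 h over no LPS it was 0 of 8 against 8.34%, and for 20 h over no LPS 0 of 7 against 0.667%. For 16 h over 8 h it was 0 of 8 against 0.245%, and for 20 h over 16 h 0 of 8 against 8.56%. With so few members, counts of 0 beside such shares say little about them. The comparisons with no LPS share that library, so their values are not independent of each other.

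By counting error alone many differences could be resolved, as for most genes at this depth. The interval excluded 1 in 5 of 8 members for 8 h over no LPS (Cdh2, Ctnnb1, Ctnna1, Gja1 and Tjp1), where 70.9% of all genes did so, and in the same 5 for 16 h over no LPS, where 71.6% did. For 20 h over no LPS it did so in 2 of 7, Ctnnb1 and Ctnna1, against 27.1%. For 16 h over 8 h it did so in 0 of 8 against 10.8%, and for 20 h over 16 h in 6 of 8 (the 5 above and Jup) against 71.8%. The median log2 ratio of the 8 members that reached 1 CPM was 0.26 for 8 h over no LPS and 0.19 for 16 h over no LPS, against 0.00 and 0.01 over all 11803 genes at that level. It was -0.07 for 20 h over no LPS and -0.17 for 20 h over 16 h, against 0.00 and 0.01. Jup was among the 8 and reached 1 CPM at 8 h and 16 h alone, so the filter favoured its part in these medians. The median size of the log2 ratio, without its sign, was 0.26 in the members and 0.27 in all genes for 8 h over no LPS, so the members differed between these libraries about as much as genes in general.

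**Figure D3:**
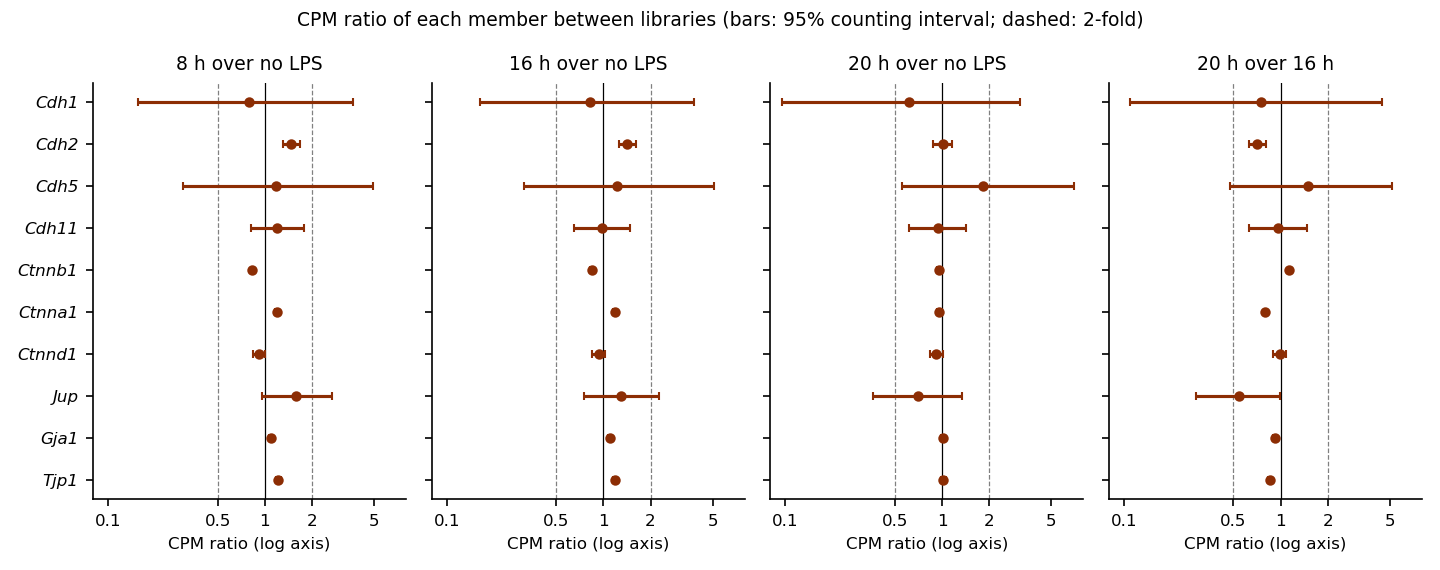
Ratio of CPM between libraries (x axis, log scale) for each member (rows) in 4 of the 5 comparisons (panels), with bars for 95% counting intervals, a solid line at 1 and dashed lines at 2-fold. All points lie inside the dashed lines; Cdh2 is farthest from 1 among the members with more than 100 reads, at 1.48 for 8 h over no LPS.

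The order of the libraries seen in Cdh2 was common among all genes. The libraries labelled 8 h and 16 h were the 2 highest in 5 of the 8 members at 1 CPM (Cdh2, Ctnna1, Jup, Gja1 and Tjp1), an order found in 40.4% of all 11803 genes, and the 2 lowest in 1 of 8 (Ctnnb1), against 41.3%. Jup reached 1 CPM at 8 h and 16 h alone, so the filter favoured its place in this count. Its counting intervals for 8 h and 16 h over no LPS both contained 1. With so few members these counts say little beside such shares. A linear trend over 0, 8, 16 and 20 h, a test across all 4 libraries with 2 residual degrees of freedom, called 0 of 8 members and 0 of 11803 genes (0.0%) with edgeR's quasi-likelihood test, where 43 genes and 0 members had an unadjusted p under 0.05 and the adjusted p was 1 for all 8. Without the 20 h library 2110 genes and without the no LPS library 540 had such a p, again with 0 calls and 0 members. DESeq2 called 1 gene and 0 members, with 29 genes at an unadjusted p under 0.05. The trend fit looks for a steady slope and is blind to levels that are alike at the first and last label. Among 8476 genes of at least 10 CPM in every library, the 3 whose log2 CPM, centred on its mean over the 4 libraries, lay closest to that of Cdh2 were Sgms2, Ppp1r12b and Fhl3, at Euclidean distances of 0.014, 0.018 and 0.020 over these 4 values. Sgms2 stood at 56.9, 83.6, 81.1 and 57.7 CPM across no LPS, 8, 16 and 20 h.

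Partners of the members at the adherens junction were present at 1 CPM for the most part. Of 18 catenin partners and nectins, 14 reached 1 CPM and none was called in any of the 5 comparisons. Over all genes 0.245% to 8.56% were called in these, so none among 14 says little. Median log2 ratios were 0.06 for 8 h over no LPS and 0.05 for 16 h over no LPS. The actin linker gene Vcl (vinculin) stood at 378, 356, 355 and 358 CPM and Afdn, whose product ties nectins to actin, at 332, 370, 363 and 325 CPM, across no LPS, 8, 16 and 20 h. Pdlim5 was 0.716 times as high at 8 h as with no LPS (0.688 to 0.744).

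Desmosomal and tight junction genes were mostly under 1 CPM. Of 14 desmosome genes 3 reached 1 CPM, and the desmosomal cadherin genes Dsg1a, Dsg1b, Dsg2 and Dsg3 had no reads. The other listed desmosomal cadherin genes, Dsc1, Dsc2 and Dsc3, had at most 5, 1 and 6 reads. The 3 genes at 1 CPM were the plaque genes Pkp2, Ppl and Pkp3. Pkp2 had 836, 1042, 999 and 832 reads across no LPS, 8, 16 and 20 h, and Ppl stood at 1.85 to 3.22 CPM. Pkp3 was called higher at 8 h and 16 h than with no LPS, with 71 and 76 reads against 21, and lower at 20 h than at 16 h. Of 31 other tight junction genes 10 reached 1 CPM, 7 had no reads, and Cldn12 was the claudin with the most reads, at 78.1, 93.1, 92.6 and 74.4 CPM across these labels. None was called against no LPS. Over all genes 8.42% were called for 8 h over no LPS and 8.34% for 16 h over no LPS. The share was 0.667% for 20 h over no LPS and 8.56% for 20 h over 16 h. Marveld1 had 0.569 times its no LPS level at 8 h (0.529 to 0.611), which is 41.7 CPM against 73.3 CPM. Occludin (Ocln) was called lower at 20 h than at 16 h, at 2.82 CPM against 6.24 CPM (ratio 0.451, 0.341 to 0.593), and Dchs1 was called higher there, at 3.79 CPM against 1.66 CPM. Ocln was picked after its values were seen.

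Among the genes that act with beta-catenin in the nucleus, TCF/LEF factors were called. Of 14 TCF/LEF factors and feedback targets of beta-catenin, 6 reached 1 CPM, and 2 of them, Tcf7 and Lef1, were called higher at 8 h and at 16 h than with no LPS and lower at 20 h than at 16 h. Over all genes 8.42%, 8.34% and 8.56% were called in these 3 comparisons. Tcf7, which encodes TCF1, had 83, 294, 290 and 82 reads across no LPS, 8, 16 and 20 h. It was 3.49 times as high at 8 h as with no LPS (2.72 to 4.50) and 3.56 times as high at 16 h (2.78 to 4.61), with a 20 h over no LPS ratio of 1.01 (0.734 to 1.38). Lef1, picked after its values were seen, had 9, 35, 30 and 6 reads at these labels, and its 8 h over no LPS ratio was 3.83 (1.80 to 9.06); it reached 1 CPM at 8 h and 16 h alone. Tcf7l1 and Tcf7l2 were not called, at 1.68 (1.39 to 2.02) and 1.75 (1.34 to 2.31) for 8 h over no LPS. The median log2 ratio of the 6 genes was 0.77 for 8 h over no LPS, against 0.00 over all genes. Lef1 entered the 6 only through the libraries where it was high, so the filter favoured a high median. Most of the 6 are TCF/LEF genes, so the median does not speak for the feedback targets.

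Of the listed feedback targets of beta-catenin other than TCF/LEF genes themselves, Znrf3 alone reached 1 CPM, and it was not called. Axin2, a target widely used to read Wnt signalling, had 1, 4, 0 and 3 reads across no LPS, 8, 16 and 20 h, Sp5 and Dkk1 had none, and Lgr5 and Nkd1 had at most 2. Notum and Rnf43 stayed under 1 CPM, with 16, 28, 24 and 13 reads and with 15, 26, 27 and 16 reads, and their 8 h over no LPS ratios were 1.72 (0.901 to 3.41) and 1.71 (0.871 to 3.47). Znrf3 stood at 63.4, 57.8, 57.1 and 60.9 CPM, and Ctnnbip1, which encodes an inhibitor of the contact between beta-catenin and TCF, at 8.14, 8.92, 9.93 and 7.15 CPM at these labels. Of 10 genes of the destruction complex that marks beta-catenin for degradation, 9 reached 1 CPM and none was called. Over all genes 0.245% to 8.56% were called, depending on the comparison. The median log2 ratio of the 9 was 0.00 for 8 h over no LPS. Among them Axin1 stood at 131, 133, 131 and 121 CPM and Csnk1a1 at 387, 397, 407 and 425.5 CPM across no LPS, 8, 16 and 20 h. Summed epithelial markers were high in the same 2 libraries as Tcf7, at 128 and 129.5 CPM, from Krt8 and Krt18 above all. In the same list Krt7 went the other way, with 19, 10, 7 and 14 reads across no LPS, 8, 16 and 20 h. Epcam had at most 3 reads. The part of these markers was not tested.

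**Figure D4:**
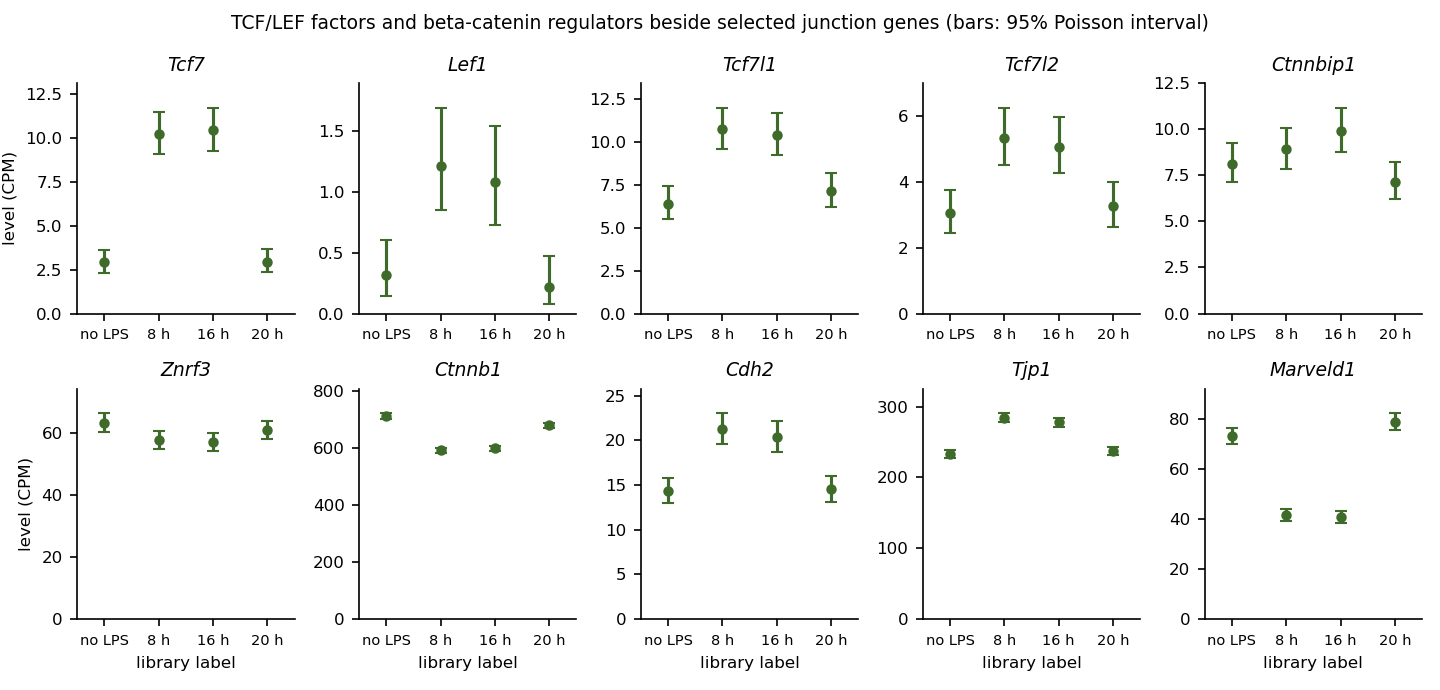
Level in CPM (y axis, linear and starting at 0, a scale per gene) by library label (x axis) for TCF/LEF factors, 2 regulators of beta-catenin signalling and 4 junction genes, with bars for 95% Poisson intervals. Tcf7 stands at 10.2 and 10.5 CPM at 8 h and 16 h and at 2.94 and 2.96 CPM at the other labels, while Ctnnb1 and Marveld1 are lower at 8 h and 16 h.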

How the data were processed

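Polyadenylated RNA of 4 libraries was analysed, 1 per label, from the deposited table of raw counts per gene, for which the submitters' processing notes name STAR, featureCounts and mm10. The sources used here do not give versions, settings, annotation, strand use or the treatment of multi-mapping reads. Columns were matched to samples by title. Symbols came from the table of GENCODE M21 gene identifiers (38872 of 39056 matched), and coordinates, exon lengths, exon overlaps and shared 50-base words from GENCODE M21. Promoter sequences are RefSeq, GRCm38.p6.

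Counts were scaled with TMM factors (edgeR 4.0.16, R 4.3.3). Ratios carry exact conditional binomial (Clopper-Pearson) 95% intervals, log2 ratios a prior count of 2, and levels exact Poisson 95% intervals (SciPy 1.17.1). TPM values used the exon bases of all transcripts of a gene merged. The trend used glmQLFit and glmQLFTest with 2 residual degrees of freedom and Benjamini-Hochberg adjustment over genes of at least 1 CPM in 1 library, with DESeq2 1.42.0 as an alternative. Other scalings, prior counts, filters and thresholds were tried. Both procedures were tested on simulated data. The members, lists and rules were chosen with earlier results of these data known. The members were all described. Some genes are not reported here. From each list were named the genes called against no LPS on 100 or more reads and otherwise the 3 with the highest TPM. Other genes were picked after their values were seen, including Arvcf, Pkp4, Tcf7l1, Tcf7l2, Axin2 and those at 0 reads.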

Additional observations from a re-analysis of the deposited data

How the results depend on the processing

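No paired analysis was possible because each label has 1 library, and no comparison of libraries has a replicate check. Scaling by library size, DESeq2 size factors or upper quartiles and prior counts of 0.5 or 10 gave 250 further member log2 ratios. All 250 stayed within their counting intervals, the largest shift with another scaling was 0.03, and the sign changed in 2 (Cdh2, 20 h over no LPS). No member was called under any planned setting except Jup, the 1 member called for 20 h over 16 h with a fold threshold of 1.5, on 18 and 33 reads. Counts of called genes depended on the thresholds. With a fold threshold of 1.5 they were 2343 for 8 h over no LPS, 2356 for 16 h over no LPS, 236 for 20 h over no LPS, 92 for 16 h over 8 h and 2449 for 20 h over 16 h, against 981, 971, 77, 28 and 1000 as reported. With at least 10 CPM they were 332, 332, 22, 0 and 357 in the same order, and the share of higher calls was 62.3%, 62.0%, 100% and 42.6% in the 4 that had any, against 50.4%, 50.3%, 84.4% and 54.6%. With no filter they were 1484 for 16 h over no LPS, 216 for 20 h over no LPS and 172 for 16 h over 8 h, and with a stricter interval level 40 for 20 h over no LPS and 4 for 16 h over 8 h. The trend called 1 gene with DESeq2, and 0 genes and 0 members without any one library (0 to 0). Cdh1, Cdh5 and Jup are limited by depth.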

Other observations

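Of 14 listed regulators of transitions between epithelial and mesenchymal states, 9 reached 1 CPM. For 8 h over no LPS 1 of the 9 was called, where 8.42% of all genes were. For 16 h over no LPS it was 2 against 8.34%, and for 20 h over 16 h 1 against 8.56%. With so few genes these counts say little beside such shares. The epithelial transcription factor genes Ovol1 and Ovol2 and the epithelial splicing regulator gene Esrp1 had no reads. Its paralog Esrp2 had 9, 22, 23 and 12 reads across no LPS, 8, 16 and 20 h, under 1 CPM throughout, with an 8 h over no LPS ratio of 2.41 (1.06 to 5.94). Snai2, which encodes the E-cadherin repressor SLUG, stood at 62.8, 84.3, 86.2 and 65.7 CPM across no LPS, 8, 16 and 20 h, and Prrx1 at 210.1, 209, 213 and 211 CPM. Snai1, a repressor gene of the same family, had 142, 269, 286 and 218 reads at these labels; it was called at 16 h, at 2.05 times its no LPS level (1.67 to 2.53), and not at 8 h, at 1.86 times (1.52 to 2.30). Twist1 was highest at 20 h, at 50.4 CPM against 34.9 CPM with no LPS (ratio 1.44, 1.33 to 1.57), an order that no member shared apart from Cdh5 on 9 reads. Grhl2, an epithelial factor gene picked after its values were seen, had 4, 35, 31 and 1 reads across no LPS, 8, 16 and 20 h. It was called higher at 8 h and 16 h than with no LPS and lower at 20 h than at 16 h. Grhl2 reached 1 CPM at 8 h and 16 h alone, so the filter favoured calls in these directions.

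Proteases that cut cadherins at the cell surface or process such proteases were mostly present at 1 CPM. Of 9 listed genes 8 reached 1 CPM and none was called in any comparison, where 0.245% to 8.56% of all genes were. Adam10, which encodes the main sheddase of N-cadherin, stood at 180.2, 144, 146.5 and 180.4 CPM across no LPS, 8, 16 and 20 h, so it was 0.797 times as high at 8 h as with no LPS (0.765 to 0.830). Adam17 stood at 206, 181, 177 and 203 CPM at these labels.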
